A study of Mus musculus with 4 samples.

Results

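The 10 genes described here code for the insulin-like growth factor (IGF) system: the ligands Igf1 and Igf2, the receptors Igf1r and Insr, and the binding proteins Igfbp2, Igfbp3, Igfbp4, Igfbp5, Igfbp6 and Igfbp7. They were chosen by name, with earlier results of these data known, and are 10 of the 30406 genes present in the gene lists of all 4 libraries. The cells were from female C57BL6/J mice and their submandibular salivary glands, whose main ducts had been shut with a metal clip for 14 days (ligated, 1 library) or not clipped in mock surgery (3 libraries, mock 1, mock 2 and mock 3). Cells carrying EpCAM or Ter119, surface proteins of epithelium and of red blood cells, and dead cells were depleted before droplet capture, so that stroma was enriched in both groups. The labels also name the sublingual gland as harvested, and do not say that each library is a separate animal. The comparison addresses what duct obstruction does to the stroma of the gland.

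IGF1 and IGF2 are secreted growth factors that act through the receptor tyrosine kinase IGF1R, and IGF2 and insulin also through the insulin receptor, INSR. Most extracellular IGF is held by secreted binding proteins, which prolong its life and keep it from the receptor until a protease such as pappalysin cleaves them. IGFBP7, also called angiomodulin, is a low-affinity member of the family and a product of vascular cells.

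Most of the IGF genes were concentrated in 1 or 2 cell classes. Igfbp3 and Insr UMIs (unique molecular identifiers, each standing for 1 captured transcript) lay mostly in endothelial-like cells, Igfbp6 in fibroblast-like cells, and Igfbp5 in fibroblast-like and mural-like cells, mural cells being the pericytes and smooth muscle of vessel walls. Fibroblast-like cells also held most Igfbp4 UMIs, and endothelial-like cells held 27.1% of them in the ligated library, against 9.36, 16.9 and 16.4% in mock 1, 2 and 3. In endothelial-like cells of the ligated library, Igfbp3, Igfbp4 and Insr lay above all 3 mock libraries, as did Igfbp2, Igfbp5 and Igfbp6 at far lower levels. Igfbp3 and Igfbp4 did so in each of 7 endothelial clusters, at 1.36 to 11.5 times the mean mock level, the highest on 41 ligated cells. In an arterial-like sub-cluster Igfbp4 lay within the mock range. In fibroblast-like cells the binding protein protease gene Pappa lay below, and Igfbp2 and the gene of the Pappa inhibitor Stc2 above, all 3 mock libraries, though in the cluster they shared Pappa was about as low in mock 3. Among endothelial cells Igf2 was an arterial transcript, while Igf1 was nearly absent from arterial cells.

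The ligated library held 13790 cell barcodes and 80187555 UMIs, and the mock libraries 4798 to 13194 barcodes and 29897488 to 56932041 UMIs. After filters 11783 cells of the ligated library and 4405, 8510 and 11306 cells of mock 1, 2 and 3 were clustered with the IGF genes left out of the variable genes. There were 4156 endothelial-like cells in the ligated library, against 2653, 5443 and 7107 in the mock libraries, and 1235 fibroblast-like cells, against 195, 356 and 499. The summed level of 9 endothelial markers in endothelial-like cells was 12540 UMIs per 1000000 UMIs of the class (CPM) in the ligated library and 13200 to 15450 CPM in the mock libraries. That of 7 fibroblast markers in fibroblast-like cells was 27330 CPM, against 33010 to 35620 CPM. Pairs of libraries shared between 11 and 61 barcode sequences. Mock 2 and mock 3 were far more alike than any other pair, with a chi-square per gene of 4.54 for their summed endothelial counts, against 84.4 to 122 for the other 5 pairs, and were not within sampling noise. Per the file headers the ligated and mock 1 matrices were made with Cell Ranger 6.0.1, those of mock 2 and mock 3 with 7.0.0, so software version and library set cannot be told apart among the mock libraries. For this reason some comparisons are also given against mock 1, through a fit with the version as a term.

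With 1 ligated library, its spread was taken to be that of the mock libraries (2 residual degrees of freedom), and intervals given for it are exact Poisson 95% intervals that cover counting error only. Because the genes were proposed from their levels in endothelial-like and fibroblast-like cells, ligated against mock is described in those classes with no p-value.

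**Figure D1:**
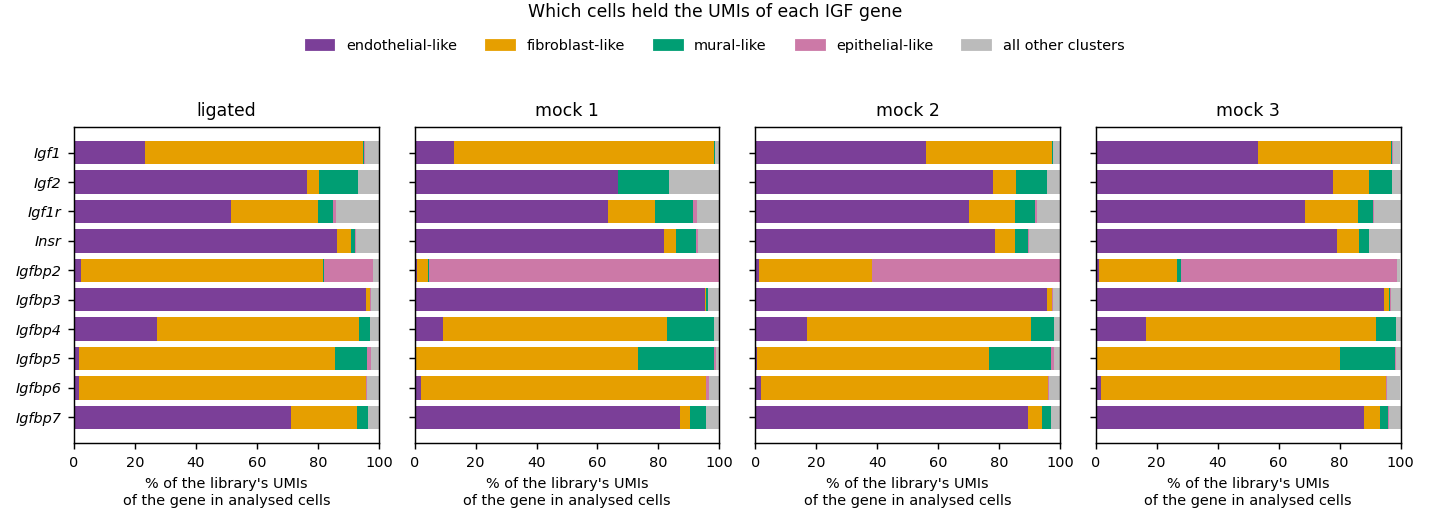
Share (%) of each library's UMIs of each IGF gene that lay in endothelial-like, fibroblast-like, mural-like, epithelial-like and all other clusters, with 1 panel per library. Endothelial-like cells held 95.8% of Igfbp3 UMIs in the ligated library and 94.7 to 95.8% in the mock libraries, and fibroblast-like cells held 94.1% of Igfbp6 UMIs, against 93.5 to 94.1%.

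Among the ligands, Igf1 was highest in fibroblast-like cells in every library. It stood at 368 CPM in the ligated library (interval 357 to 380), against 766, 436 and 403 CPM in mock 1, 2 and 3. The ligated value lay below all 3, and close to mock 2 and 3, since mock 1 alone was high (log2 fold change -0.44, SE 0.46, and -0.999 with the version as a term). In fibroblast-like cluster 10 it was at 376 CPM in the ligated library, between mock 1 (805 CPM) and mock 3 (340 CPM, 37 cells). Mock 2 had too few cells there for a value. In the adventitial-like fibroblast sub-cluster 4 it was at 769 CPM on 60 ligated cells, against 770 CPM on 158 cells of mock 1. Igf1 was also present in endothelial-like cells, at 62.9 CPM in the ligated library and at 15.6, 72.3 and 63.2 CPM in mock 1, 2 and 3. Here mock 1 alone was low, and the other libraries lay close together (log2 fold change 0.28, SE 0.86, and 1.92 with the version as a term).

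Macrophages are a known source of IGF1 in injured tissue. In macrophage- or monocyte-like cells Igf1 stood at 38.6 CPM in the ligated library (167 UMIs, interval 33.0 to 44.96), against 11.3, 13.8 and 12.1 CPM in mock 1, 2 and 3 (6, 15 and 14 UMIs). The groups did not overlap, and the log2 fold change was 1.58 (SE 0.36), with an adjusted p of 0.602 by edgeR's quasi-likelihood test, which did not pass the threshold of 0.05. After thinning each cell to 2000 UMIs, 7.73% of macrophage-like cells of the ligated library had an Igf1 UMI, against 1.92, 0.806 and 1.23% in mock 1, 2 and 3, on 453 cells and 52, 124 and 163 cells. Without thinning the shares were 15.99%, against 5.56, 3.52 and 1.27%. In NK- or ILC1-like cells (natural killer cells and type 1 innate lymphoid cells), taken as a class that should lack Igf1, the thinned share was 0.341% in the ligated library and 0.103 to 0.298% in the mock libraries. Their median depth was 5093 UMIs, against 5956 to 6987, while that of the macrophage-like cells was 6514 UMIs, against 5831, 1893 and 2134. In the macrophage-like cluster led by C1qa (cluster 15), Igf1 was at 44.9 CPM in the ligated library and at 22.2, 10.8 and 15.7 CPM in mock 1, 2 and 3. In the other macrophage-like cluster (16), which had few UMIs per cell, it was at 20.2 CPM and within the mock range of 0 to 20.3 CPM. Fibroblast markers, which mark the class richest in Igf1, summed to 153 CPM in macrophage-like cells of the ligated library and to 7.79 to 20.7 CPM in the mock libraries, and their part in the difference was not tested.

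Igf2, which codes for the fetal growth factor expressed from the paternal allele, was a rare transcript. In all barcodes it had 450 UMIs in the ligated library, against 6, 426 and 546 in mock 1, 2 and 3. Mock 1 was near 0, and its gene list alone holds Gm49394, which overlaps Igf2 on the same strand of chromosome 7 (Igf2 at chr7:142650766-142666816 and Gm49394 at chr7:142650769-142669942, GRCm38) and which had 0 UMIs. Values of Igf2 in mock 1 are therefore not read as levels. Counts and fits over the 3 mock libraries still include them, and in fibroblast-like cells mock 1 at 0 put Igf2 within the mock range, with 1.29 CPM in the ligated library and 10.0 and 16.5 CPM in mock 2 and 3. Within endothelial-like cells Igf2 stood at 98.5 CPM in the arterial-like cluster (cluster 5, led by Mecom, Cldn5 and Fbln5) of the ligated library, and at 111 and 104 CPM in mock 2 and 3. In the arterial-like sub-cluster 7 described below it was at 98.9 CPM, against 722 and 604 CPM in the 58 and 50 such cells of mock 2 and 3. In the arterial-like sub-cluster 5 mock 2 and 3 had 38.4 and 49.3 CPM. In the venous-like cluster (14, led by Vwf and Lrg1) it was at 6.08 CPM in the ligated library and at 1.60 and 1.98 CPM in mock 2 and 3, and in every other endothelial-like cluster at no more than 4.02 CPM. Igf1 had the opposite order, with 5.64 CPM in the arterial-like cluster of the ligated library, against 1.47, 0.394 and 1.80 CPM in mock 1, 2 and 3, and with 90.4 CPM in the venous-like cluster, against 29.8, 99.7 and 73.2 CPM. Mural-like cells held the next level of Igf2, at 20.8 CPM in the ligated library and 26.7 and 22.3 CPM in mock 2 and 3.

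**Figure D2:**
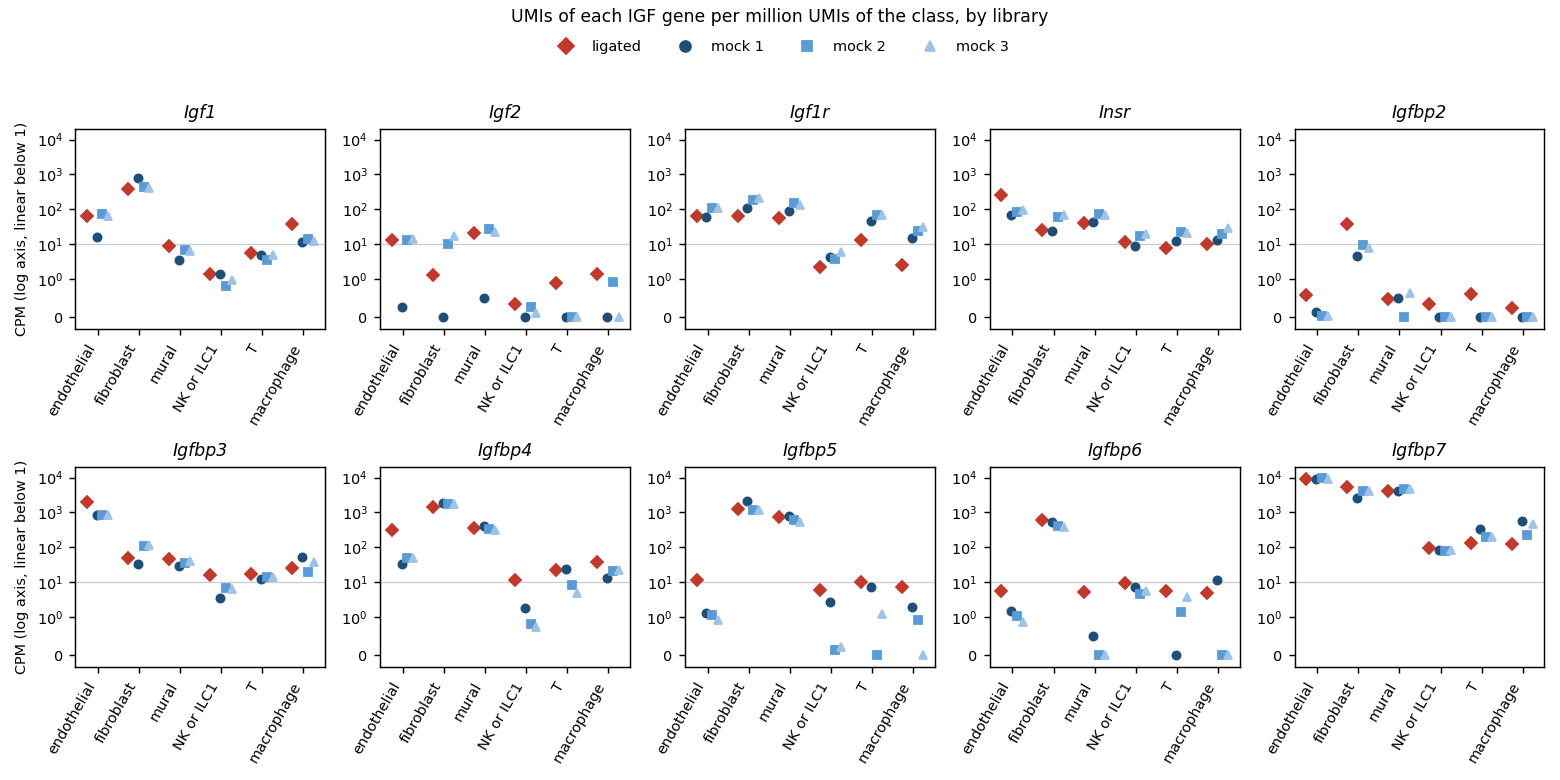
CPM (log axis, linear below 1) of the 10 IGF genes in the 6 tested cell classes, with the ligated library as a red diamond and mock 1, 2 and 3 in blue. The grey line marks 10 CPM. Igfbp4 in endothelial-like cells stood at 303 CPM in the ligated library and at 32.9 to 47.4 CPM in the mock libraries, while Igfbp7 there stood at 9350 CPM, within 9303 to 9643 CPM.

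Of the receptors, Insr, the insulin receptor gene, had its highest levels in endothelium. It stood at 252 CPM in endothelial-like cells of the ligated library (4848 UMIs, interval 245 to 260), against 68.2, 84.4 and 96.8 CPM in mock 1, 2 and 3 (83.2 ± 14.3, SD, n = 3). The ligated value lay above all mock libraries (log2 fold change 1.55, SE 0.21, and 1.79 with the software version as a term). After thinning, 32.7% of endothelial-like cells of the ligated library had an Insr UMI, against 10.3, 11.7 and 12.6%, and without thinning 48.0%, against 20.7, 19.2 and 18.5%. In NK- or ILC1-like cells the thinned share was 2.48%, against 1.34 to 3.59%. In the venous-like cluster, where Insr was at its highest among endothelial-like clusters of the mock libraries, it stood at 561 CPM in the ligated library and at 655, 350 and 417 CPM in mock 1, 2 and 3, so that the groups overlapped there. In the arterial-like cluster it was at 81.6 CPM, against 38.8, 55.5 and 58.1 CPM, with no overlap.

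Insr was also present outside endothelium. It stood at 39.1 CPM in mural-like cells, against 42.7, 73.2 and 66.2 CPM in mock 1, 2 and 3 (log2 fold change -0.57, SE 0.34, edgeR adjusted p = 0.698). In T-like cells it stood at 7.77 CPM, against 11.98, 22.5 and 20.8 CPM (-1.23, SE 0.40, edgeR adjusted p = 0.321), a direction that turned without doublet removal (0.23). Fibroblast-like cells had 25.2 CPM, against 23.0, 60.02 and 66.4 CPM, within the mock range. Epithelial-like cells, not tested, had 42.8 CPM in the ligated library, just above mock 1 and well above mock 2 and 3 (40.2, 13.6 and 2.17 CPM).

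Igf1r, the gene of the main IGF receptor, was spread over the stroma, with a value of at least 57.5 CPM in the endothelial-like, fibroblast-like and mural-like cells of every library. In endothelial-like cells it stood at 62.5 CPM in the ligated library and at 60.3, 105 and 107 CPM in mock 1, 2 and 3, and the groups overlapped. In fibroblast-like cells it stood at 65.7 CPM, below the 109, 190 and 208 CPM of mock 1, 2 and 3 (log2 fold change -1.25, SE 0.41, and -0.67 with the version as a term). In mural-like cells it was at 57.5 CPM, also below the 91.5, 153 and 131 CPM of the mock libraries, at a log2 fold change of -1.06 (SE 0.32, edgeR adjusted p = 0.673). Glia-like cells, too few in the mock libraries to be tested, had 195 CPM in the ligated library and 180, 247 and 231 CPM in mock 1, 2 and 3.

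The introns of Igf1r and Insr span 264.1 and 143.8 kb, the longest of the 10 genes. Igf1r was higher in mock 2 and 3 than in mock 1 by 0.81, 0.87 and 0.63 on the log2 scale in endothelial-like, fibroblast-like and mural-like cells, and Insr by 0.41, 1.46 and 0.71. For Igfbp3, with introns of 4.708 kb, that difference was -0.03, 1.73 and 0.44 in the same 3 classes, and for Igfbp7, with 57.59 kb, it was 0.03, 0.66 and 0.22. For Igf1, with introns of 68.87 kb, the next longest after the receptors, it was 2.12, -0.87 and 0.89. Whether introns were counted is not given, and the part of intron length in these differences was not tested. The part of the software version in the receptor values cannot be told apart from that of the libraries.

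In T-like cells Igf1r stood at 13.2 CPM in the ligated library (44 UMIs), against 45.5, 70.2 and 66.0 CPM in mock 1, 2 and 3, with no overlap (log2 fold change -2.13, SE 0.34, edgeR adjusted p = 0.291). Nearly all of it lay in 1 T-like cluster (28), led by Il7r, Trdc and Cd163l1, of which Trdc codes for a chain of the gamma-delta T cell receptor. There Igf1r stood at 106 CPM in the ligated library and at 324 and 394 CPM in mock 2 and 3, and mock 1 had 15 such cells, too few for a value. In the T-like cluster led by Cd8b1 (12) it stood at 1.68 CPM in the ligated library and 6.20 CPM in mock 1, and in the T-like cluster of mock 2 and 3 (20) at 5.36 and 6.84 CPM. Cluster 28 made up 8.23% of T-like cells in the ligated library, against 18.5, 22.3 and 16.7% in mock 1, 2 and 3. In macrophage-like cells Igf1r stood at 2.55 CPM on 11 UMIs, against 15.1, 23.1 and 31.2 CPM on 8, 25 and 36 UMIs (log2 fold change -3.24, SE 0.63, edgeR adjusted p = 0.496).

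Igfbp3, whose product carries most IGF in serum, was an endothelial transcript. It stood at 2041 CPM in endothelial-like cells of the ligated library (39213 UMIs, interval 2021 to 2061), against 849, 839 and 826 CPM in mock 1, 2 and 3 (838 ± 11.4, SD, n = 3). The 3 mock values lay close together and far below the ligated one (log2 fold change 1.23, SE 0.15, and 1.17 with the version as a term). Igfbp4, which codes for a binding protein that inhibits IGF action and is cleaved by pappalysin, stood at 303 CPM on 5829 UMIs (interval 296 to 311), against 32.9, 47.4 and 47.3 CPM (42.5 ± 8.36, SD, n = 3). The log2 fold change was 2.79 (SE 0.23, and 3.11 with the version as a term).

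The 250 bases before the annotated starts of Igfbp3, Igfbp4 and Igfbp5 are shown because the first 2 genes lay above all mock libraries in every endothelial cluster compared. Igfbp5, a fibroblast transcript that stood at only 11.7 CPM in the same cells, is set beside them (RefSeq, GRCm38.p6). It is no unchanged comparator, since it too lay above all mock libraries there (log2 fold change 3.37, SE 0.32), and in 6 of the 7 clusters. Igfbp3 lies on the minus strand at chr11:7213924-7214173, Igfbp4 on the plus strand at chr11:99040994-99041243 and Igfbp5 on the minus strand at chr1:72874866-72875115, each read 5′ to 3′ along the gene, with a TATA-like hexamer in capitals.
Igfbp3: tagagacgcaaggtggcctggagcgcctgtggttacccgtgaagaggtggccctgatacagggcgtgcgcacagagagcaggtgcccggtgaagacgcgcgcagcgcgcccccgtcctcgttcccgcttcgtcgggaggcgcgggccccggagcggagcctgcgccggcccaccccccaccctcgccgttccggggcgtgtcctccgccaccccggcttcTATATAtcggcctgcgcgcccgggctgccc
Igfbp4: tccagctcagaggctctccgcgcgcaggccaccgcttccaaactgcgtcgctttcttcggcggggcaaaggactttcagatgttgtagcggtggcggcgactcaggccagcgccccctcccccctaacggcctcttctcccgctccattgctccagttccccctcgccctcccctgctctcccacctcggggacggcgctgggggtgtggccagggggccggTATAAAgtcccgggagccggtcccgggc
Igfbp5: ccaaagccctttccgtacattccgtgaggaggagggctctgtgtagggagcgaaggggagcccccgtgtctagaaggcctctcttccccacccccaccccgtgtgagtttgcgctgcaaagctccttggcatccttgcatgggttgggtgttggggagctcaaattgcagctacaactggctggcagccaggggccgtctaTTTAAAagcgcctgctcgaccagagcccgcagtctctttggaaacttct
TATATA (found in Igfbp3), TATAAA (found in Igfbp4) and TTTAAA (found in Igfbp5) were looked for on both strands, and at least 1 of these hexamers, which may overlap each other, is in 24.6% of 32851 mouse promoters of this length. The first base of the match lies 30 bases before the start in Igfbp3, 28 in Igfbp4 and 49 in Igfbp5, and 4.53% of promoters hold one between 40 and 16 bases before the start. GGGCGG, in 32.7% of promoters on either strand, is in none of these 3 windows, and it is in at least 1 annotated promoter of Igf2, Igf1r, Igfbp2 and Igfbp7.

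The higher Igfbp3 and Igfbp4 values held within the endothelial clusters compared, but that of Igfbp4 did not hold in arterial-like sub-cluster 7. A minimum of 30 cells in every library left 7 of 9 endothelial-like clusters, and in all 7 both genes lay above all 3 mock libraries. Over these clusters Igfbp3 was 1.36 to 4.37 times its mean mock level and Igfbp4 was 2.32 to 11.5 times its mean. Both highest ratios were in cluster 2, where the ligated library had 41 cells, and clusters 0 and 8 had 46 and 85 of them. All 7 ligated values come from 1 library. Insr lay above all mock libraries in 6 of the 7, at 1.18 to 3.26 times the mock mean over all 7, and Igfbp7 in 0 of the 7. In the arterial-like cluster, which held 14.2% of endothelial-like cells in the ligated library, against 9.65, 9.76 and 10.2% in mock 1, 2 and 3, Igfbp3 stood at 1411 CPM, against 619, 774 and 711 CPM, and Igfbp4 at 290 CPM, against 123, 132 and 121 CPM. In arterial-like sub-cluster 7 Igfbp4 was at 301 CPM in the ligated library, against 99.8, 356 and 391 CPM in mock 1, 2 and 3. This was within the mock range, on 579 ligated cells and 351, 58 and 50 mock cells. Igfbp3 was at 1477 CPM there, above 617, 356 and 494 CPM. The venous-like cluster was low in Igfbp3 and high in Igfbp4. There Igfbp3 stood at 296 CPM in the ligated library, against 132, 110 and 120 CPM, and Igfbp4 at 529 CPM, against 96.8, 129 and 143 CPM. The remaining endothelial-like cells were parted by library. Cluster 1 held 70.8% of those of the ligated library, cluster 8 held 54.0% of those of mock 1, and clusters 0 and 2 together most of those of mock 2 and 3. Cluster 1, led by Cd34, Gpihbp1, Plvap and Flt1, had 2296 CPM of Igfbp3 in the ligated library, against 820, 1020 and 855 CPM in the few such cells of mock 1, 2 and 3.

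**Figure D3:**
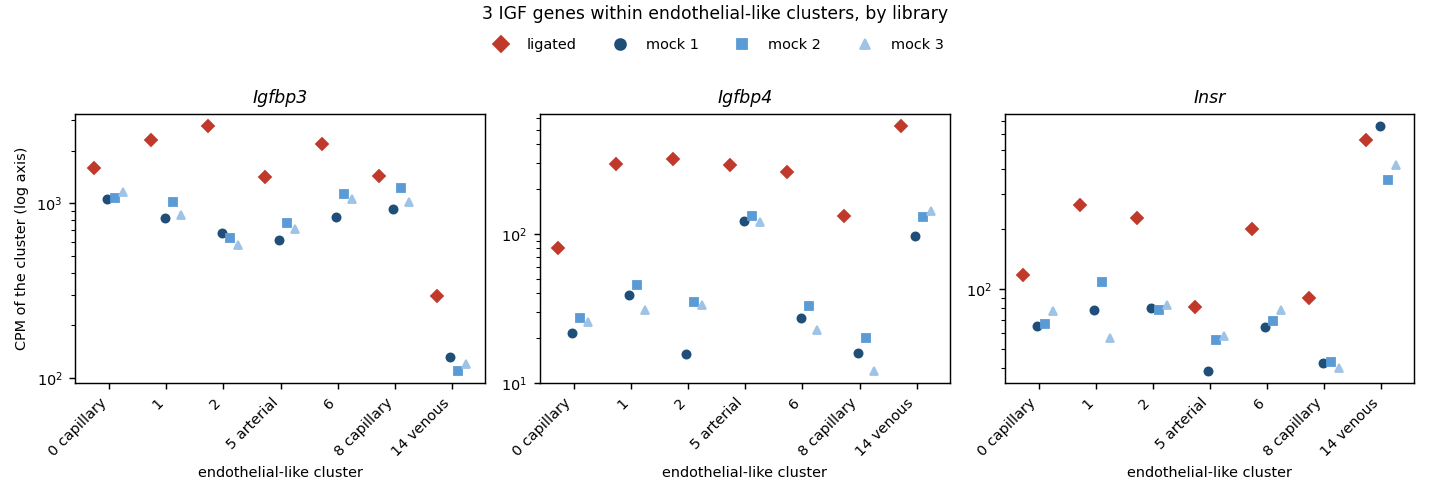
CPM (log axis) of Igfbp3, Igfbp4 and Insr in the 7 endothelial-like clusters with at least 30 cells in every library, with the ligated library as a red diamond and mock 1, 2 and 3 in blue. The ligated value lies above all 3 mock values in 7 of 7 clusters for Igfbp3 and Igfbp4 and in 6 of 7 for Insr, the venous-like cluster (14) being the exception.

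The share of cells with a UMI moved in the same direction. After thinning to 2000 UMIs, on 3318 cells of the ligated library and 2458, 4599 and 5593 of mock 1, 2 and 3, 79.1% of endothelial-like cells had an Igfbp3 UMI in the ligated library, against 65.0, 58.8 and 57.3% in mock 1, 2 and 3. For Igfbp4 the shares were 36.8%, against 5.78, 6.78 and 7.03%. Without thinning they were 83.0%, against 79.5, 68.3 and 63.9%, for Igfbp3, and 51.0%, against 12.6, 12.6 and 11.1%, for Igfbp4. In NK- or ILC1-like cells, which should lack both, the thinned shares were 3.35% of cells for Igfbp3 in the ligated library, against 0.447 to 0.622%, and 2.30% for Igfbp4, against 0.138 to 0.596%. Median depth in the endothelial-like cells was 3682 UMIs in the ligated library, against 5149, 3720 and 3037 in mock 1, 2 and 3.

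Fibroblast RNA was more frequent in endothelial-like and NK- or ILC1-like cells of the ligated library. The 7 fibroblast markers summed to 158 CPM in its endothelial-like cells, against 23.9, 14.3 and 11.8 CPM in mock 1, 2 and 3, and to 134 CPM in its NK- or ILC1-like cells, against 17.5, 8.75 and 9.83 CPM, and none of the 7 was at 0 in endothelial-like cells. Igfbp4 itself was at 11.2 CPM in NK- or ILC1-like cells of the ligated library, against 1.80, 0.820 and 0.748 CPM (log2 fold change 3.42, SE 0.54, edgeR adjusted p = 0.603), and Igfbp3 at 15.9 CPM, against 3.37, 6.56 and 6.30 CPM (1.55, SE 0.40, edgeR adjusted p = 0.603). In endothelial-like cells of the same library Igfbp4 and Igfbp3 stood at 303 and 2041 CPM. Igfbp5 in endothelial-like cells was at 11.7 CPM in the ligated library, against 1.25, 1.13 and 0.912 CPM, with 5.70 CPM in its NK- or ILC1-like cells. Igfbp6 in endothelial-like cells was at 5.67 CPM, against 1.45, 1.08 and 0.873 CPM, with 9.42 CPM in its NK- or ILC1-like cells. The part of free RNA was not tested for any of these genes. In the venous-like cluster Igfbp5 reached 76.5 CPM in the ligated library, against 2.48, 3.99 and 3.30 CPM. Few cells held it, since 148 of 4156 endothelial-like cells of the ligated library had an Igfbp5 UMI. Of the 225 UMIs in these cells, 17.8% lay in 1 cell and 30.7% in 5 cells.

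Over the 10 genes in endothelial-like cells, 6 lay above and 0 below all 3 mock libraries, where 28.8% of all 14171 genes tested lay above and 27.3% below. This count comes from the comparison that proposed the genes and nothing is read from it. Their median log2 fold change was 1.39, beside -0.03 over all genes tested. None of the 10, and 0 of all genes, passed the adjusted threshold of edgeR (1283 genes, or 9.05%, had an unadjusted p under 0.05), while DESeq2 called 4 of the 10 and 222 genes in all.

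Igfbp5, which codes for a binding protein that attaches to extracellular matrix, stood at 1234 CPM in fibroblast-like cells of the ligated library (interval 1213 to 1256), against 2159, 1161 and 1151 CPM in mock 1, 2 and 3. Mock 1 alone was high, and the ligated value lay within the mock range (log2 fold change -0.18, SE 0.46, and -0.75 with the version as a term). After thinning, 54.2% of fibroblast-like cells had an Igfbp5 UMI in the ligated library, below the 74.2, 64.5 and 64.4% of mock 1, 2 and 3. Its level was uneven among fibroblast-like cells of the ligated library. It was at 1883 CPM in fibroblast-like sub-cluster 2, led by Thbs4 and Timp1, and at 419 CPM in sub-cluster 3, led by Ccn5. In adventitial-like sub-cluster 4 it was at 754 CPM on 60 ligated cells, against 2236 CPM on 158 cells of mock 1. In mural-like cells Igfbp5 was at 758 CPM in the ligated library and at 774, 588 and 541 CPM in mock 1, 2 and 3, with overlap. Within the mural-like cells of mock 2 and 3 it was at 852 and 713 CPM in the cluster led by Tagln, Acta2 and Myh11 (24), genes of smooth muscle, and at 123 and 169 CPM in the cluster led by Rgs5, Abcc9 and Kcnj8 (26), genes of pericytes. In the ligated library and mock 1, 99.6% of mural-like cells each fell in a single cluster (11), so that these clusters did not separate smooth muscle and pericytes. Clustered again at a resolution of 0.5, mock 1 had 1087 CPM in a smooth muscle-like sub-cluster (5) and 174 CPM in sub-cluster 6. The ligated library had 1281 CPM in mural-like sub-cluster 4 and 329 CPM in mural-like sub-cluster 1. The last 3 were unnamed, with best marker scores for pericytes (6 and 1) and smooth muscle (4).

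Igfbp2, another inhibitory binding protein gene, stood at 38.7 CPM on 390 UMIs in fibroblast-like cells of the ligated library (interval 34.9 to 42.7), against 4.39, 9.65 and 7.65 CPM on 9, 27 and 25 UMIs in mock 1, 2 and 3. The ligated value lay above all 3 (log2 fold change 2.50, SE 0.38, and 3.19 with the version as a term), and 6.80% of its fibroblast-like cells had a UMI, against 1.54, 1.12 and 0.200%. The UMIs lay in few cells, 25.6% of those of the ligated library in 1 cell and 44.6% in 5 cells, against 74.1% in 1 cell in mock 2 and all 25 in 1 cell in mock 3. The Poisson interval does not cover this spread between cells. Epithelial-like cells had the highest level of Igfbp2, 260 CPM in the ligated library and 1071, 76.5 and 74.9 CPM in mock 1, 2 and 3. Mural markers, among them the smooth muscle genes Acta2 and Myh11, summed to 9016 and 9468 CPM in these epithelial-like cells of the ligated library and mock 1, and to 1498 and 1461 CPM in those of mock 2 and 3.

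Igfbp6, whose product prefers IGF2, stood at 595 CPM in fibroblast-like cells of the ligated library, above the 513, 407 and 383 CPM of mock 1, 2 and 3 (log2 fold change 0.56, SE 0.26, and 0.27 with the version as a term). Igfbp4 stood at 1419 CPM, below the 1914, 1704 and 1690 CPM of the mock libraries (-0.21, SE 0.19), the opposite side from its endothelial value. Igfbp3 was within the mock range there, at 50.1 CPM, against 33.2, 105 and 116 CPM. Igfbp7 stood at 5474 CPM, above 2659, 4235 and 4155 CPM (0.68, SE 0.27, and 1.1 with the version as a term), while in endothelial-like and mural-like cells it lay within the mock range. Fibroblast-like cells of the ligated library and mock 1 lay mostly in 1 cluster (10), with 83.8 and 86.2% of them, and those of mock 2 and 3 in another (13), with 92.1 and 92.6%. In cluster 10, where mock 2 had too few cells for a value, the ligated library lay between mock 1 and mock 3 (37 cells) for both Igfbp6 and Igfbp7. Igfbp6 was there at 601 CPM in the ligated library, against 309 and 1339 CPM in mock 1 and 3, and Igfbp7 at 5524 CPM, against 3021 and 6614 CPM. A further 16.03% of the ligated ones formed a cluster (27) with few UMIs per cell that had the lymphocyte genes Ccl5 and Ctsw among its leading genes.

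Over the 10 genes in fibroblast-like cells, 3 lay above and 3 below all mock libraries, where 30.2% of all 12097 genes tested lay above and 28.9% below, and nothing is read from this count either. The median log2 fold change was -0.33, beside -0.04 over all genes tested. edgeR called 0 of the 10 and 0 genes in all (1570 genes, or 13%, had an unadjusted p under 0.05), and DESeq2 called 1 of the 10 and 361 in all.

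**Figure D4:**
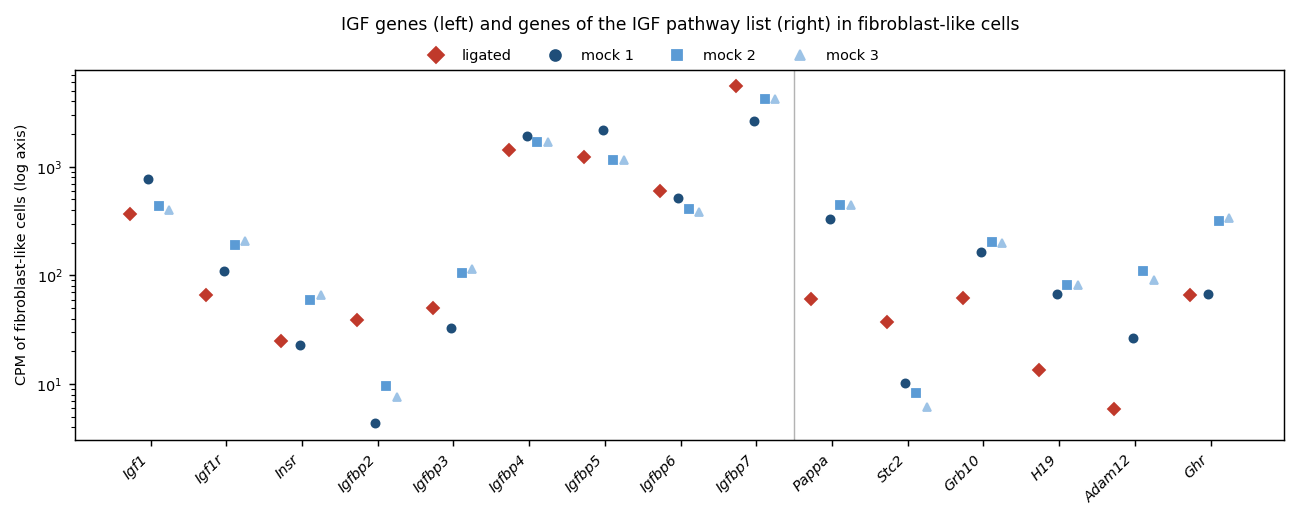
CPM (log axis) in fibroblast-like cells of 9 IGF genes, left of the line, and of 6 genes of the IGF pathway list, right of it, with the ligated library as a red diamond and mock 1, 2 and 3 in blue. Pappa stood at 60.2 CPM in the ligated library and at 331 to 446 CPM in the mock libraries, while Stc2 stood at 37.2 CPM, above 6.12 to 10.3 CPM.

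Of 33 further genes of the pathway, 26 were tested in fibroblast-like cells, of which 3 lay above and 18 below all mock libraries, beside the 30.2 and 28.9% of all genes. Their median log2 fold change was -0.39, and edgeR called 0 of them. Pappa, which codes for the protease that releases IGF from IGFBP4, stood at 60.2 CPM in the ligated library, against 331, 446 and 444 CPM in mock 1, 2 and 3 (log2 fold change -2.65, SE 0.28). Stc2, which codes for stanniocalcin-2, an inhibitor of that protease, stood at 37.2 CPM, against 10.3, 8.22 and 6.12 CPM (2.30, SE 0.35). Neither gene's groups overlapped. In cluster 10, however, Pappa was at 61.4 CPM in the ligated library, against 378 and 66.6 CPM in mock 1 and 3, close to mock 3, while Stc2 was at 37.7 CPM, against 10.4 and 13.3 CPM. Adam12, which codes for a protease of IGFBP3 and IGFBP5, was at 5.85 CPM, below 26.4, 110 and 90.0 CPM (-3.57, SE 0.93). Grb10, which codes for an adaptor that restrains insulin and IGF receptors, stood at 61.9 CPM, against 165, 204 and 200 CPM (-1.51, SE 0.24). H19, the noncoding RNA beside Igf2 that is expressed from the maternal allele, stood at 13.6 CPM, against 67.4, 81.5 and 81.4 CPM (-2.39, SE 0.25). The growth hormone receptor gene Ghr was at 65.5 CPM, against 67.4, 317 and 339 CPM, close to mock 1 (-1.76, SE 0.95, and 0.02 with the version as a term).

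Elsewhere the pathway genes named are those with at least 10 CPM in a library and a log2 fold change of at least 1 outside the mock range. Pik3cb, a catalytic subunit of PI 3-kinase, was at 20.5 CPM in endothelial-like cells of the ligated library, against 29.1, 44.4 and 46.1 CPM. Below 10 CPM in every library, Stc2, Lrp1, Htra3 and Igf2bp3 lay above all mock libraries there, at log2 fold changes of 3.78, 2.44, 2.10 and 1.06, as did Lrp1 in NK- or ILC1-like cells at 3.00. Stc2 had 14 UMIs in endothelial-like cells, against 0, 2 and 1. Lrp1 and Htra3 stood at 1012 and 630 CPM in fibroblast-like cells of the ligated library. The part of free RNA in these values was not tested. Of the 24 pathway genes tested in endothelial-like cells 8 lay above and 6 below all mock libraries, with a median of 0.04, beside the 28.8 and 27.3% of all genes. Igf2bp3, an RNA-binding protein gene of fetal tissue, was at 13.5 CPM in mural-like cells, against 5.08, 2.74 and 1.91 CPM (2.03, SE 0.67, edgeR adjusted p = 0.673). Irs1, which codes for the adaptor of both receptors, was at 14.0 CPM there, against 23.9, 43.1 and 43.9 CPM (-1.33, SE 0.43, edgeR adjusted p = 0.673). Pappa and Pik3cb in mural-like cells, Htra3 in NK- or ILC1-like cells, Adam12, Ghr and Stat5b in T-like cells, and Grb10 and Stat5b in macrophage-like cells also reached it, the lowest edgeR adjusted p being 0.3175.

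In mural-like cells 8 of the 10 IGF genes were tested, with 2 above and 2 below all mock libraries and 0 called by edgeR, where 0.00914% of 10944 genes were called and 7.23% had an unadjusted p under 0.05, 28.8% lay above and 26.3% below. Igfbp3 was at 46.3 CPM in the ligated library, above 28.0, 34.2 and 41.4 CPM (log2 fold change 0.48, SE 0.28, edgeR adjusted p = 0.698), a direction that turned with Scrublet's own doublet threshold (-0.16). Igfbp4 was at 353 CPM, within 302 to 417 CPM. In NK- or ILC1-like cells 6 of 8 lay above and 1 below, where 27.4% of 12271 genes lay above and 27.7% below. In T-like cells 2 of 6 lay above and 3 below, with 26.8 and 24.1% of 9918 genes, and in macrophage-like cells 2 of 7 above and 3 below, with 25.1 and 22.5% of 9453 genes. edgeR called 0 IGF genes in each of these 3 classes, where it called 0, 0 and 0.0212% of all genes, and 5.82, 13.5 and 7.3% had an unadjusted p under 0.05. DESeq2 called 1 IGF gene in NK- or ILC1-like cells and 0 in mural-like, T-like and macrophage-like cells.

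Across 38 points of class and library with at least 30 cells, the genes with the level most like that of Igfbp3 were Scarb1, Kctd12b and Vamp5 (Pearson r 0.92, 0.91 and 0.91, on log2 of CPM plus 10, among 7988 genes). For Igfbp4 they were Ccdc80, C1qtnf2 and Mgp (0.93 each). Lhfp, Smim1 and Gas1 were most like Igfbp5 (0.97, 0.96 and 0.96), and Sned1, Gfpt2 and Penk most like Igf1 (0.93, 0.91 and 0.91). Points of one library share its depth and its free RNA, so these values are a description.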

How the data were processed

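Deposited values were counts, that is raw UMIs per gene and barcode in 1 sparse matrix per library after the authors' calling of cell barcodes. The submitters' processing notes name Cell Ranger 7.0.1 and mm10, while per the file headers versions 6.0.1 and 7.0.0 were used. Whether introns were counted: not given in the sources used here. Gene lists held 32285 IDs (ligated), 31053 (mock 1) and 32287 (mock 2 and 3), and the 30406 common to all 4 were used.

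Cells under 500 UMIs or 300 genes, or over 15% mitochondrial UMIs, were left out. Doublets were the highest Scrublet scores (scanpy 1.11.5), 0.8% per 1000 barcodes, or 1521 ligated barcodes and 184, 741 and 1393 of mock 1, 2 and 3. Scrublet's own threshold called 739, against 75, 0 and 0, so it did not work in mock 2 and 3. Counts were log-normalized, 2000 variable genes without the IGF genes gave 30 principal components and 15 neighbours, and Leiden clustering (leidenalg 0.10.2) used a resolution of 1.0 without integration. Clusters were named from markers by a scoring set after clusters had been seen. Most sub-clusters at 0.5 were parted by library, so clusters are compared instead, and few sub-clusters are described. Of the endothelial-like ones, only sub-cluster 7 had at least 30 cells in every library.

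Counts were summed per class and library and compared with edgeR 4.0.16 in R 4.3.3 (TMM, filterByExpr, quasi-likelihood F test, Benjamini-Hochberg over all genes of a class, threshold 0.05). On simulated counts it recovered 84.5% (mural-like) to 98.5% (fibroblast-like) of 200 genes changed by a log2 of 2, with 0 to 14 false calls. The simulation gave all genes the same dispersion and no difference between mock libraries beyond depth, so it does not measure power on these data. P-values measure only the spread between these libraries. Alternatives were RLE factors, DESeq2 1.42.0, no filter, a version term, each mock library left out, other doublet and clustering settings, and, chosen after seeing the data, leaving out clusters with few UMIs. Thinning drew 2000 UMIs per cell. IGF genes were described in classes where they reached 10 CPM in a library. Pathway genes were named when called or, where none was, at 10 CPM, outside the mock range and a log2 fold change of at least 1, at most 6 per class. The genes and lists were chosen with earlier results of these data known.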

Additional observations from a re-analysis of the deposited data

Results flagged for a closer look

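In some classes an IGF gene lay above every mock library and in others below every one, and the differences between classes were not tested. Igfbp4 had a log2 fold change, ligated over mock, of 2.79 in endothelial-like, 3.42 in NK- or ILC1-like and 0.89 in macrophage- or monocyte-like cells, all above, and of -0.21 in fibroblast-like cells, below. Insr was above in endothelial-like cells (1.55) and below in mural-like (-0.57), T-like (-1.23, and 0.23 without doublet removal) and macrophage- or monocyte-like cells (-1.09). Igf1 was above in macrophage- or monocyte-like cells (1.58) and below in fibroblast-like cells (-0.44), though in fibroblast-like cluster 10 it lay between mock 1 and mock 3. Igfbp7 was above in fibroblast-like (0.68) and NK- or ILC1-like cells (0.30) and below in T-like (-0.75) and macrophage- or monocyte-like cells (-1.76). In T-like cells the summed endothelial markers stood at 167 CPM in the ligated library, against 436, 359 and 419 CPM in mock 1, 2 and 3. In macrophage- or monocyte-like cells they stood at 187 CPM, against 967, 410 and 586 CPM, and Igfbp7 is abundant in endothelial-like cells. Their part in the lower Igfbp7 values was not tested.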

How the results depend on the processing

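edgeR called 0 IGF genes in each of the 6 classes, and still 0 with RLE factors, without mock replicate 2 or 3, and under every other doublet, clustering and cell setting run. With the software version as a term it called 7 in endothelial-like, 8 in fibroblast-like, 3 in mural-like, 2 in NK- or ILC1-like, 2 in T-like and 4 in macrophage- or monocyte-like cells. Leaving out 1 mock library gave 0 to 6, 0 to 8, 0 to 3, 0 to 7, 0 to 5 and 0 to 5 in that order, the high value always without mock 1. The fits with the version term and those without mock 1 leave 1 residual degree of freedom, between mock 2 and mock 3, and called 335 to 8880 genes per class in all. Those without mock 2 or 3 called 0, or 10 in macrophage- or monocyte-like cells without mock 3. DESeq2 called 4, 1 and 1 in endothelial-like, fibroblast-like and NK- or ILC1-like cells, and no filter gave 1 in fibroblast-like and 1 in T-like cells. Of 543 alternative log2 fold changes, 20 had the opposite sign. Leaving out 1 mock library turned Igf1 (-0.13 to 0.62) and Igf2 (-0.081 to 0.95) in endothelial-like, Igfbp5 in fibroblast-like (-0.35 to 0.23) and Igf2 in mural-like cells (-0.15 to 0.96), each without mock 1, and Igfbp4 in mural-like cells (-0.074 to 0.24) without mock 2 or 3. The version term turned Igf2 (5.63), Insr (0.19) and Igfbp3 (0.65) in fibroblast-like, Igfbp4 (-0.27) and Igfbp5 (-0.059) in mural-like, Insr in NK- or ILC1-like (0.31), Igfbp4 in T-like (-0.10) and Igfbp6 in macrophage-like cells (-1.15). Scrublet's threshold turned Igfbp3 in mural-like (-0.16), T-like (-0.10) and macrophage-like cells (0.12). No doublet removal turned Igfbp4 in mural-like (-0.0094), Insr in T-like (0.23) and Igfbp3 in macrophage-like cells (0.75). Igfbp3, Igfbp4 and Insr in endothelial-like cells kept their sign under every alternative. The cause of these shifts was not tested. No paired analysis was possible because the groups share fewer than 2 replicate numbers.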

Other observations

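Igfbp3 in ILC2-like cells of the ligated library stood at 419 CPM on 148 UMIs, of which 139, or 93.9%, lay in 1 of 72 cells. No lymphatic endothelial-like cell was found among the 11783 cells of the ligated library, against 6, 10 and 9 in mock 1, 2 and 3. This absence depended on the doublet cut, since with Scrublet's own threshold or no doublet removal there were 31, against 6, 11 and 9. In these cells Igfbp5 stood at 613, 1052 and 1514 CPM and Igfbp4 at 457, 793 and 410.5 CPM. Glia-like cells had 194 CPM of Igfbp5 in the ligated library (292 cells), against 20.0, 27.4 and 31.9 CPM in mock 1, 2 and 3 (22, 35 and 38 cells). The mock values rest on few UMIs, as the lowest nonzero marker sums in these cells were 10.0, 9.13 and 7.97 CPM. Erythroid markers summed to 93.7 CPM in glia-like cells of the ligated library, and to 140, 1406 and 98160 CPM in mock 1, 2 and 3.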
